A study of Mus musculus with 4 samples.

Results

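Reactive glia are the astrocytes, oligodendrocytes and microglia of injured, inflamed or epileptic brain, and 10 genes commonly used to mark that state were followed here in the adult mouse hippocampus. The 10 genes, Gfap, Vim, Serpina3n, C4b, Cd44, Lcn2, Osmr, Stat3, Cryab and Hspb1, were taken by symbol from the 32285 genes of the count tables, and all 10 were found. Nuclei of both hippocampi were profiled by droplet-based single-nucleus RNA sequencing (snRNA-seq), in which each transcript molecule is tagged with a unique molecular identifier (UMI). The 2 wild-type mice (WT) and the 2 knock-in mice (KI) were littermates on the C57BL/6N background, and each mouse gave 1 library, named WT1, WT2, KI1 and KI2 below. KI mice were heterozygous for the R87C mutation of Cyfip2, a regulator of actin assembly, in every cell of the body (Cyfip2+/R87C), and serve as a model of West syndrome, an infantile epilepsy. The mutation is constitutive, so no comparison isolates its effect in glia, and no agent was given to either group. A label of KI2 reads R88C where the protocol label of all 4 libraries reads R87C, and KI2 was kept in the KI group that its title and genotype labels give. All 4 libraries carry 1 batch label, and the age of the mice, the oldest adult stage the study examined, stands in none of the labels used here.

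In reactive astrocytes the intermediate filament proteins GFAP and vimentin thicken the cytoskeleton, and cytokines of the interleukin-6 family, acting through receptors such as OSMR and the transcription factor STAT3, are known to switch on these genes. The same cells secrete acute-phase proteins, among them SERPINA3N, lipocalin-2 and complement component C4, and oligodendrocytes in diseased brain are known to express some of these genes too. Small heat shock proteins such as alpha-B-crystallin (Cryab) and HSP27 (Hspb1) are chaperones that hold unfolded proteins in solution.

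No deposited annotation of cell types was used, so nuclei with at least 500 detected genes were assigned to classes from marker genes that include none of the 10. The summed markers of a class had to reach a cut, set per class at 20 to 60 UMIs per 10000 UMIs of the nucleus. A nucleus entered a class when it held at least 3 of its markers, reached its cut, and had a marker share, divided by the cut, at least 3 times that of any other class. Of 52032 nuclei kept, 8698 entered the 5 classes described here. Astrocytes numbered 439 in WT1, 520 in WT2, 181 in KI1 and 214 in KI2, and oligodendrocytes 1875, 1136, 1981 and 762 in the same order. Oligodendrocyte precursor cells (OPC) numbered 234, 218, 240 and 141, microglia 195, 159, 212 and 83, and vascular cells (endothelial and mural) 35, 19, 22 and 32. The marker levels that follow are set by this rule and describe the classes without testing their names. Astrocyte markers were at 228.8 and 235.1 UMIs per 10000 in WT astrocytes and 261.0 and 245.9 in KI astrocytes. OPC markers were at 165.4 and 166.9 in WT OPC and 147.5 to 147.9 in KI OPC. Oligodendrocyte markers lay at 134.1 to 153.0 in oligodendrocytes and microglial markers at 87.64 to 97.2 in microglia. Neuronal markers were present in every glial class, at 16.48 to 27.32 per 10000 UMIs. In astrocytes they were at 19.76 and 19.31 in WT and 16.48 and 18.91 in KI. The part of these astrocyte marker shifts in the genotype differences there was not tested. Levels are therefore set beside those in gated neurons (7642 to 9713 per library). Neuron levels can hold free RNA, RNA of mixed nuclei and transcripts of the neurons themselves, and these were not separated. The libraries held 73009975 to 80913580 UMIs each, and any pair of them shared 40 to 67 nuclear barcodes. The nuclear transcript Malat1 took 8.9% and 8.71% of UMIs in WT1 and WT2 against 13.7% and 12.2% in KI1 and KI2.

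Each level is given as CPM, the UMIs of the gene per 1000000 UMIs of the class in a library, in the order WT1, WT2, KI1, KI2. Tests are edgeR's quasi-likelihood test on those sums with Benjamini-Hochberg adjustment over all genes, the library being the replicate (n = 2 mice per genotype), and a gene is called at an adjusted p below 0.05. Fold changes are log2 values, KI minus WT or class minus the mean of the other 4 classes. Their standard error (SE) was derived from the test, as the absolute fold change over the square root of its F statistic. The KI and WT sums of a class differ in the nuclei they hold, so the level per nucleus is given where it matters, and a change in which nuclei of a class were recovered and a change in RNA per nucleus cannot be told apart.

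Across the classes, each gene had its own distribution. Gfap led in astrocytes, C4b in astrocytes and oligodendrocytes, Cryab in oligodendrocytes, Hspb1 in vascular cells, and Vim and Osmr in vascular cells and then astrocytes. In KI mice, Vim and Serpina3n rose in astrocytes, C4b rose in oligodendrocytes and OPC, and Cryab fell in oligodendrocytes. Gfap was 2.18 times as high in KI as in WT astrocytes but fell just short of the threshold. Stat3, tested in 4 classes, Cd44, tested in astrocytes and oligodendrocytes, Osmr, tested in astrocytes, and Hspb1, tested in vascular cells, were not called between genotypes, and Lcn2 was barely detected.

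**Figure D1:**
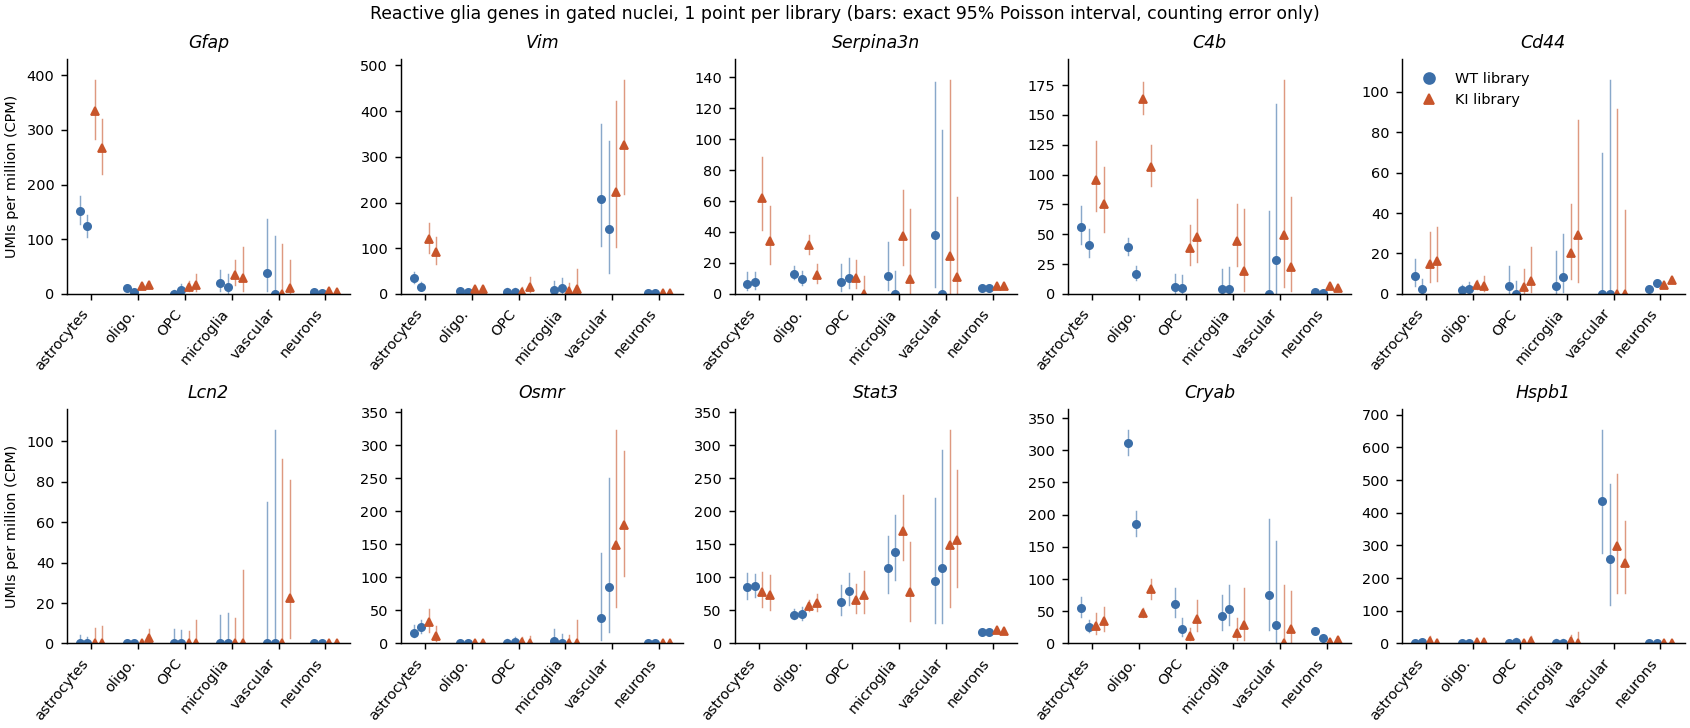
Level of each of the 10 genes (y axis, CPM, linear, each panel with its own scale) in the 5 glial and vascular classes and in neurons (x axis) for the 4 libraries, WT and KI in different colours. Points are libraries and bars their exact 95% Poisson intervals, which cover counting error only. Gfap stands highest in astrocytes, Cryab in oligodendrocytes and Hspb1 in vascular cells, and in oligodendrocytes both KI points of C4b (163 and 106 CPM) lie above both WT points (39.5 and 16.8 CPM).

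Gfap, the main intermediate filament of astrocytes (chromosome 11, 102887336 to 102900912, minus strand, GRCm38, protein-coding), was 152, 123, 334 and 266 CPM in astrocytes, from 138, 146, 157 and 116 UMIs. Both KI libraries stood above both WT libraries there, and their exact 95% Poisson intervals (283.7 to 390.4 and 220.0 to 319.3 CPM) did not meet those of WT (127.9 to 179.8 and 104.1 to 145.0 CPM). Over genotypes, Gfap was higher in astrocytes than in the mean of the other classes by 4.24 (log2, SE 0.18, adjusted p = 2.11e-126, edgeR). It lay at 4.07 to 15.7 CPM in oligodendrocytes, 0 to 16 in OPC, 12.3 to 34 in microglia and 1.94 to 4.86 in neurons. Even so, astrocytes held only 24.1 to 43.7% of a library's Gfap UMIs and the far more numerous neurons 27.3 to 46.3%. Between genotypes, the astrocyte sums differed by 1.17 (log2, SE 0.21, adjusted p = 0.0537, edgeR). Per nucleus the genotypes were also apart, with 31.4 and 28.1 Gfap UMIs per 100 astrocytes in WT and 86.7 and 54.2 in KI. The call changed with the setting. Gfap passed in DESeq2 (adjusted p = 0.017) and in edgeR with the replicate number as a block. It also passed without KI1 and without KI2, in fits that leave 1 KI library. With a looser assignment of nuclei (a lead of 1.5 times) the log2 fold change was 0.80 (adjusted p = 0.181, edgeR). In astrocytes taken from clusters named by their markers it was 0.59 (adjusted p = 0.472). Gfap in neurons moved the same way at a far lower level, 2.58, 1.94, 4.86 and 4.01 CPM, and the part of free RNA in the class levels was not tested.

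The RefSeq start of Gfap is shown because, of the promoters examined, it holds a STAT site (TTCNNNGAA), the element that STAT3 is known to bind. The window runs from 250 bases before to 50 bases after the RefSeq start (GRCm38.p6, chr11:102897151-102897450, minus strand), and capitals mark the site, which begins 2 bases before that start. GENCODE, the source of the gene positions, begins Gfap further upstream, so the whole window lies inside the gene span given above:
Gfap: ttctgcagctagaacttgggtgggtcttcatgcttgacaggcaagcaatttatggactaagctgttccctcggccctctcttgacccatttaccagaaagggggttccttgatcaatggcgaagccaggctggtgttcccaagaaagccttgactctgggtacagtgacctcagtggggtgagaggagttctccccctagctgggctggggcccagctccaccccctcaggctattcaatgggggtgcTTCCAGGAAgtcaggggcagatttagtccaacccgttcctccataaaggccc

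Vim encodes vimentin, the filament of mesenchymal cells and of immature and reactive astrocytes (chromosome 2, 13573927 to 13582826, plus strand). In astrocytes it was 34.2, 16.1, 119 and 91.8 CPM, from 31, 19, 56 and 40 UMIs. Both KI libraries were above both WT libraries, and the log2 fold change was 2.16 (SE 0.33, adjusted p = 0.0312, edgeR). The difference held when any 1 library was left out, at 1.66 to 2.72, and was lost in the clusters named by markers, at 1.41 with an adjusted p of 0.204. The 9 endothelial markers, of a cell type with more Vim, were at 0.165 and 0.127 per 10000 UMIs in WT astrocytes and 0.596 and 0.230 in KI astrocytes (15, 15, 28 and 10 UMIs), and their part in the Vim difference was not tested. Vascular cells had more Vim than astrocytes, 208, 143, 223 and 325 CPM from 11, 5, 9 and 29 UMIs, and exceeded the mean of the other classes by 3.83 (SE 0.38, adjusted p = 1.15e-21, edgeR), as astrocytes did by 1.76 (SE 0.24, adjusted p = 1.21e-12). Between genotypes the vascular fold change was 0.65 (SE 0.43, adjusted p = 0.691). In oligodendrocytes Vim lay at 6.09, 5.08, 10.2 and 10.2 CPM, below the other classes by a log2 difference of -1.69 (SE 0.31, adjusted p = 4.56e-07, edgeR). Neurons had 1.911 and 1.043 CPM in WT and 2.665 and 2.664 in KI, and the part of free RNA in the class levels was not tested.

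Serpina3n, a secreted serine protease inhibitor of the acute-phase response (chromosome 12, 104406729 to 104414329, plus strand), had the largest genotype difference of the 8 genes tested in astrocytes. Its astrocyte level was 6.62, 7.60, 61.7 and 34.4 CPM, resting on 6, 9, 29 and 15 UMIs. The log2 fold change was 2.76 (SE 0.44, adjusted p = 0.0354, edgeR), and it ranged from 2.23 to 3.14 when 1 library was left out. Like that of Vim, this call was lost in the clusters named by markers (2.55, adjusted p = 0.0743). In WT mice astrocytes stood no higher than oligodendrocytes, which had 13.2 and 9.65 CPM, and no class was called above the others for Serpina3n. KI1 oligodendrocytes held 31.6 CPM but KI2 oligodendrocytes 12.3, inside the WT range. The genotypes thus overlapped in oligodendrocytes (log2 fold change 1.11, SE 0.41, adjusted p = 0.235, edgeR), and without KI2 the value was 1.51, from a single KI library. Neurons lay at 4.13 and 4.00 CPM in WT and 5.29 and 5.17 in KI, and held 52.9 to 77.7% of a library's Serpina3n UMIs. The part of free RNA in the glial levels was not tested. The other 9 Serpina3 genes, whose sequences are close enough for reads to be shared, had at most 5 UMIs together in any glial class of a library.

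The RefSeq starts of Vim and Serpina3n are shown beside that of Gfap as those of the 2 genes called higher in KI astrocytes, and neither holds the STAT site, the heat shock element (GAANNTTC) or the AP-1 site (TGANTCA) (RefSeq, GRCm38.p6, Vim chr2:13574061-13574360 and Serpina3n chr12:104406458-104406757, both plus strand). The Vim window also lies inside the GENCODE span of the gene:
Vim: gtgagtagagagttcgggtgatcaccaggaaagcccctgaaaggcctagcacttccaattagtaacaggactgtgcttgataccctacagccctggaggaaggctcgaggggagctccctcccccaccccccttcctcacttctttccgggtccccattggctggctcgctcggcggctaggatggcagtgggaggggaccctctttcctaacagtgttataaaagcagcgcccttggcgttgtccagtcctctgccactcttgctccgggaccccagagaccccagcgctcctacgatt
Serpina3n: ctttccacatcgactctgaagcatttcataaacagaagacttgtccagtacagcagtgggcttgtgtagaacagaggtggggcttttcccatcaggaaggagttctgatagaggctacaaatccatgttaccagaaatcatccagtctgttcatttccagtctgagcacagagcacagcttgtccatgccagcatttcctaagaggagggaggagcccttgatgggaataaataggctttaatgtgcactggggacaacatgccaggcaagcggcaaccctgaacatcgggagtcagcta

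C4b encodes complement component C4, which is cleaved to tag surfaces for the C3 convertase (chromosome 17, 34728380 to 34743882, minus strand). Oligodendrocytes showed it at 39.5, 16.8, 163 and 106 CPM, from 123, 33, 579 and 156 UMIs. Both KI libraries were well above both WT libraries, although KI1 and KI2 differed from each other, as did WT1 and WT2. Its log2 fold change was 2.29 (SE 0.34, adjusted p = 0.0232, edgeR). Per 100 oligodendrocytes there were 6.56 and 2.90 UMIs in WT and 29.2 and 20.5 in KI. Leaving out 1 library gave 1.85 to 3.08, in fits with 1 library in a genotype. In oligodendrocytes OPC markers were at 3.15 to 3.17 per 10000 UMIs in WT and 3.91 to 5.06 in KI, microglial markers at 3.37 to 3.78 and 4.46 to 5.54, and endothelial markers at 0.109 to 0.127 and 0.177 to 0.200, and their part in the C4b and Cryab differences was not tested.

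OPC gave the largest fold change of C4b among the 3 classes in which it was tested. Their levels were 5.72, 5.30, 38.7 and 48.0 CPM, from only 3, 3, 23 and 15 UMIs, and the log2 fold change was 2.98 (SE 0.52, adjusted p = 0.0036, edgeR). In OPC taken from clusters it was 3.52 with an adjusted p of 0.0686. Within gated OPC the class's own markers were lower in both KI libraries, microglial markers were higher (2.84 and 3.03 per 10000 UMIs in WT, 3.26 and 3.86 in KI), and endothelial markers were at 0.133 and 0.141 in WT and 0.202 and 0.256 in KI, and their part in the C4b difference was not tested. Astrocytes had the highest WT level, 56.2 and 41.4 CPM, and reached 95.7 and 75.7 in KI. Here too both KI libraries were above both WT libraries, with a log2 fold change of 0.87 that was not called (SE 0.26, adjusted p = 0.188, edgeR). Without KI2 it was 1.06, from a single KI library. Microglia held 1, 1, 13 and 2 UMIs, too few to enter the test. With the looser assignment C4b was tested there and gave 2.72 (SE 0.66, adjusted p = 0.0726, edgeR), and in named clusters 2.49 (SE 0.75, adjusted p = 0.0794). C4b exceeded the mean of the other classes in astrocytes by 1.80 (SE 0.24, adjusted p = 7.19e-13) and in oligodendrocytes by 1.68 (SE 0.21, adjusted p = 6.07e-14).

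The genotype effect on C4b differed between classes (adjusted p = 0.00324, edgeR's quasi-likelihood F test of class by genotype), and C4b alone among the 8 genes tested had a called difference, against 2.14% of the 11844 genes. The log2 fold change was 0.87 in astrocytes against 2.29 in oligodendrocytes and 2.98 in OPC. Without WT1 the adjusted p of that difference was 0.191 and without WT2 0.879. Neurons moved with the KI label as well, at 1.75, 0.725, 6.51 and 5.20 CPM, and held 26.6 to 34.4% of the C4b UMIs of a library. In each library their level was below that of oligodendrocytes, and the part of free RNA in the oligodendrocyte and OPC levels was not tested. C4a, the near-identical neighbour of C4b, had at most 3 UMIs per glial class and library, and reads that match both genes may have been lost or split, which leaves the C4b counts uncertain to that extent.

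**Figure D2:**
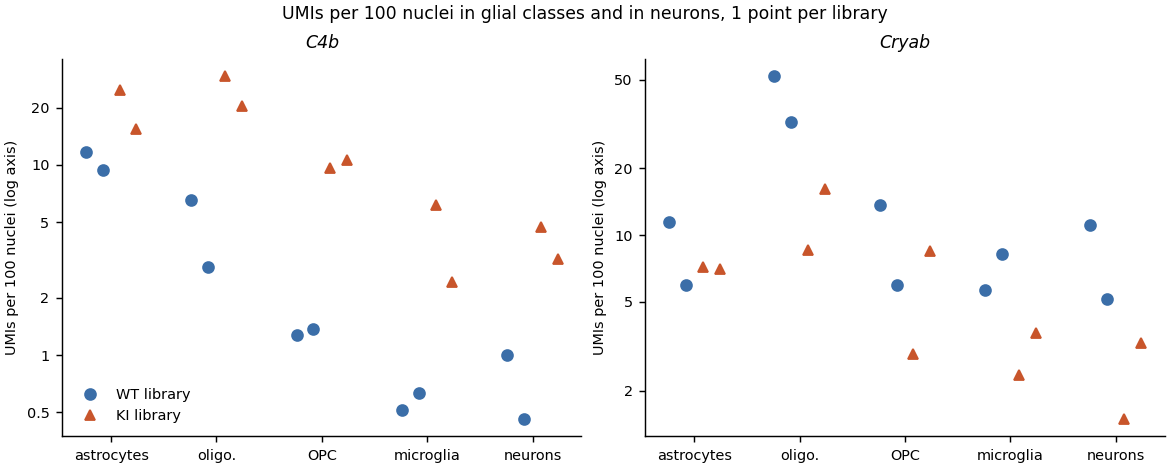
UMIs of C4b and Cryab per 100 nuclei (y axis, logarithmic) in astrocytes, oligodendrocytes, OPC, microglia and neurons (x axis), 1 point per library, WT and KI in different colours. In oligodendrocytes C4b goes from 6.56 and 2.90 in WT to 29.2 and 20.5 in KI, and Cryab from 51.7 and 32.1 to 8.53 and 16.1.

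Cryab, which encodes the chaperone alpha-B-crystallin (chromosome 9, 50751325 to 50756636, plus strand), went the opposite way. Its oligodendrocyte level was 311, 185, 47.7 and 83.9 CPM, from 970, 365, 169 and 123 UMIs, and both KI libraries lay below both WT libraries. The log2 fold change was -1.91 (SE 0.29, adjusted p = 0.0245, edgeR), and it stayed between -2.31 and -1.47 when 1 library was left out. Over genotypes, oligodendrocytes exceeded the mean of the other classes by 2.18 (SE 0.16, adjusted p = 4.64e-42). In the other glial classes Cryab was at 22.9 to 61.0 CPM in WT and 11.8 to 38.4 in KI, with log2 fold changes of -0.31 in astrocytes (SE 0.41, adjusted p = 0.824), -0.84 in OPC (SE 0.50, adjusted p = 0.535) and -1.19 in microglia (SE 0.67, adjusted p = 0.561). The test of a difference between classes gave an adjusted p of 0.0662. Neurons showed a drop of the same order, 19.5, 8.10, 2.07 and 5.35 CPM, and because they are so many they held 38.9%, 40.4%, 29.8% and 39.7% of a library's Cryab UMIs, against 35.0%, 32.2%, 44.1% and 16.4% in oligodendrocytes. The part of free RNA in these levels was not tested.

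The oligodendrocyte calls of C4b and Cryab depended on how firmly nuclei were assigned. With a looser assignment, in which a lead of 1.5 times over the next class was enough, the log2 fold changes were 2.31 and -2.13 but the adjusted p-values 0.191 and 0.0992. The nuclei that this added held 55.8% of KI2's oligodendrocyte UMIs against 22.9 to 26.0% in the other libraries, and neuronal markers in KI2 oligodendrocytes rose from 23.2 to 32.7 per 10000 UMIs. The calls of Vim and Serpina3n in astrocytes and of C4b in OPC were kept under that assignment (adjusted p = 0.0378, 0.00924 and 0.00061, edgeR).

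Hspb1, which encodes the chaperone HSP27 (chromosome 5, 135887919 to 135889563, plus strand), was highest in vascular cells, at 435, 258, 297 and 247 CPM from 23, 9, 12 and 22 UMIs. These held 10.8 to 26.2% of a library's Hspb1 UMIs and neurons 22.9 to 37.9%, and gated fibroblasts showed it at 53.0 to 119 CPM. It exceeded the mean of the other classes by 6.60 (SE 0.43, adjusted p = 1.04e-51, edgeR), a fitted value that depends on the prior count because no other of the 5 classes held more than 12 UMIs of it in a library. Within vascular cells it sat in endothelial cells, at 542, 440, 397 and 289 CPM. In neurons it lay at 0.336 to 0.707 CPM. Both KI libraries were below both WT libraries in endothelial cells, but over vascular cells the log2 fold change was -0.42 (SE 0.42, adjusted p = 0.845). Its start is shown because it carries 2 heat shock elements, the sites that heat shock factors are known to bind, with first bases at -117 and -97 from the RefSeq start (GRCm38.p6, chr5:135887669-135887968, plus strand, sites in capitals):
Hspb1: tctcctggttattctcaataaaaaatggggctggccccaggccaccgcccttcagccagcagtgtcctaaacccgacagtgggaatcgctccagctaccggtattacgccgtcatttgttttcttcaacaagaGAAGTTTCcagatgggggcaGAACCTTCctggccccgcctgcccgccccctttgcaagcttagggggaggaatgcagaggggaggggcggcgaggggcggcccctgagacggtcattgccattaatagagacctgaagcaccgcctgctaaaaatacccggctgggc

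Of the 8 genes with a RefSeq promoter, 1 held the STAT site, 1 the heat shock element and 1 the AP-1 site, which is in Osmr, 3 bases past the RefSeq start and inside the longer GENCODE span. C4b and Cryab had no entry. Among 32851 promoters of the same length, 8.3% held the STAT site, 7.86% the heat shock element and 7.81% the AP-1 site. The 3 motifs read the same on both strands, do not overlap in these windows and are matches of letters, not measured sites.

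Osmr encodes the receptor subunit for oncostatin M (chromosome 15, 6813577 to 6874969, minus strand). It was found in vascular cells at 37.8, 85.9, 149 and 180 CPM, from 2, 3, 6 and 16 UMIs, and in astrocytes at 16.5, 24.5, 31.9 and 11.5 CPM, against 0.126 to 0.522 CPM in neurons. Oligodendrocytes, OPC and microglia had at most 1 UMI of it each per library, so its fitted excess of 5.68 in vascular cells (SE 0.85, adjusted p = 7.02e-10, edgeR) and 3.46 in astrocytes (SE 0.51, adjusted p = 8.14e-11) depends on the prior count. KI1 was the highest and KI2 the lowest of the astrocyte libraries, and the astrocyte genotype fold change of 0.11 (SE 0.48, adjusted p = 0.957) turned to -0.87 without KI1 and -0.14 without WT1. In vascular cells both KI libraries were above both WT libraries, but Osmr was under the filter there. With the looser assignment it was tested and gave 1.5 (SE 0.55, adjusted p = 0.651, edgeR), and in named clusters 1.48 (SE 0.73, adjusted p = 0.671). Endothelial markers in vascular cells were at 93.86 and 86.44 per 10000 UMIs in WT and 120.6 and 137.6 in KI. In KI2, 9 of the 32 vascular nuclei held 64781 of the 89161 UMIs. The part of these differences in the vascular levels of Osmr, Vim and Hspb1 was not tested.

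Stat3, the transcription factor downstream of OSMR (chromosome 11, 100885098 to 100939540, minus strand), had UMIs in all 5 classes and in neurons, which lay at 17.7 to 20.4 CPM and held 58.7 to 66.0% of its UMIs. Astrocytes had 84.9, 87.0, 78.7 and 73.4 CPM, OPC 62.9, 79.4, 65.7 and 73.6, and microglia 114, 139, 170 and 78.3. Oligodendrocytes were lower, at 43.6, 45.2, 56.7 and 61.4 CPM, with a log2 difference of -0.78 from the other classes (adjusted p = 5e-07, edgeR). Microglia were higher by 0.60 (adjusted p = 0.00501), a call lost without WT1 (adjusted p = 0.0881), WT2 (0.1) or KI1 (0.991). The astrocyte genotype difference in Stat3 was -0.14 (SE 0.22, adjusted p = 0.858). In oligodendrocytes both KI libraries were above both WT libraries, and differed by 0.47 (log2, SE 0.18, adjusted p = 0.238, edgeR). Without KI2 the difference was 0.44, from a single KI library.

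Cd44, the hyaluronan receptor (chromosome 2, 102811141 to 102901665, minus strand), was sparse. Astrocytes had 8.82, 2.53, 14.9 and 16.1 CPM, and the log2 fold change was 1.55 (SE 0.64, adjusted p = 0.338, edgeR). Microglia showed 3.81, 8.19, 20.4 and 29.4 CPM from only 1, 2, 6 and 3 UMIs, with overlapping Poisson intervals, and vascular cells none. Neurons, at 2.58, 5.46, 4.35 and 6.75 CPM, held 76.9 to 90.6% of a library's Cd44 UMIs, and their part in the glial levels was not tested. Lcn2, the iron-binding acute-phase protein lipocalin-2 (chromosome 2, 32384633 to 32388252, minus strand), had 4, 1, 9 and 12 UMIs over all nuclei of the libraries, too few for any test, and its 4 UMIs in oligodendrocytes were all in KI2. Neutrophil markers had 38 UMIs in KI2 oligodendrocytes, or 0.259 per 10000, against 2 to 9 UMIs in the other libraries, and their part in the Lcn2 counts was not tested.

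Taking the tested genes as a group, 8 of the 10 passed the filter on low counts in astrocytes, and Vim and Serpina3n were called, both up, where 0.236% of the 9328 genes tested were called. Both KI libraries exceeded both WT libraries for 5 of the 8 (19.5% of all genes did so) and fell below them for 1 of the 8 (23.9% of all genes). The median log2 fold change of the 8 was 1.02, beside 0.00462 over all genes. In oligodendrocytes 7 were tested and 2 called, C4b up and Cryab down, against 1.05% of 12932 genes. There 5 of the 7 were above in both KI libraries (19.3% of all genes) and 1 below (28.0%), and the median of 0.913 compared with 0.00782 over all genes. Among 3 tested in OPC only C4b was called (0.911% of 8235 genes), and of 2 tested in microglia none was (0.331% of 5732 genes). None of 2 was called in vascular cells, where 0 of 868 genes passed (0.0%) in edgeR, 71 of them at an unadjusted p under 0.05. Passing the filter can itself depend on a high KI level, so these counts describe the genes and are not evidence about them as a set.

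**Figure D3:**
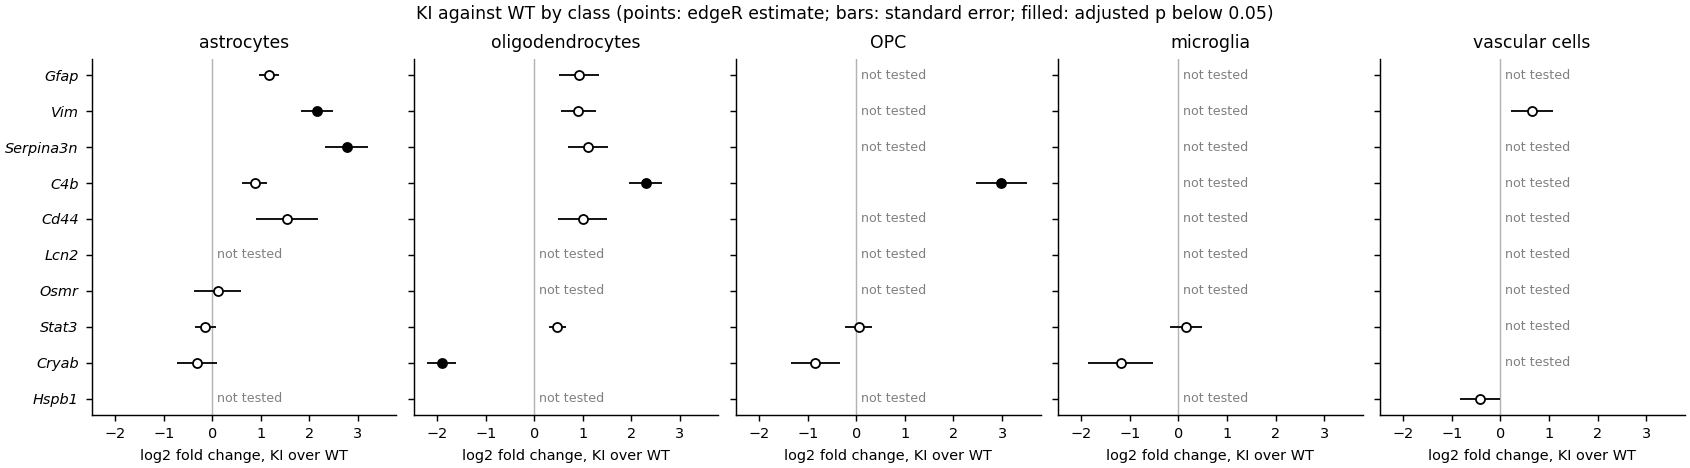
Log2 fold change, KI minus WT (x axis), of each gene (y axis) in 1 panel per class, with bars of 1 SE derived from the edgeR F statistic. Filled points have an adjusted p below 0.05, and genes under the filter are marked as not tested. Vim and Serpina3n in astrocytes and C4b in oligodendrocytes and OPC are filled above 0, and Cryab in oligodendrocytes, at -1.91, is filled below 0.

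Between classes, 4 of the 8 genes tested were called higher in astrocytes and none lower, where 2551 of 11844 genes were higher and 1194 lower (31.6% called). Oligodendrocytes had 5 called, 2 higher and 3 lower (2588 higher and 1311 lower over all genes, 32.9%). OPC had 2, both lower (2484 higher and 1308 lower, 32.0%). Microglia had 4 with 1 higher (2116 higher and 1365 lower, 29.4%), and vascular cells 3, all higher (1099 higher and 1641 lower, 23.1%). Hspb1 had no UMI in WT microglia and Osmr none in KI microglia. Because of these empty sums, Hspb1 in astrocytes, oligodendrocytes and OPC, and Osmr in oligodendrocytes and OPC, could not be called lower. The calls below the other classes outside vascular cells were mostly of Vim and Gfap, and several were lost when 1 library was left out. Gfap in oligodendrocytes (-1.07, adjusted p = 0.0249, edgeR) was not called without WT1, WT2 or KI2. Gfap in OPC (-1.78, adjusted p = 0.00326) was not called without WT1 or KI2. C4b in microglia (-1.65, adjusted p = 0.0121) was not called without WT1 or WT2. Hspb1 in microglia (-3.53, adjusted p = 0.0227), with 2 UMIs there in all, was not called when any 1 of the 4 libraries was left out. Gfap had 2, 0, 0 and 1 UMIs in vascular cells and none in WT1 OPC. C4b had none in WT1 vascular cells, and Hspb1 none in WT microglia. A fit can lose a call through such a class without counts, so a loss does not show that the call rested on 1 library.

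Summed over all nuclei of a library, where neurons dominate, none of the 9 genes tested was called (193 of 21718 genes were, 0.889%). C4b had the largest fold change, 2.11 (SE 0.44, adjusted p = 0.0791, edgeR), and Cryab the most negative, -1.80 (SE 0.45, adjusted p = 0.103). The C4b value was 2.79 without WT1, 1.64 without WT2 and 2.44 without KI2, and that of Cryab -2.29 without WT2 and -2.27 without KI2. These fits leave 1 library in a genotype, so their p-values are not given. Gfap was at 0.33 (SE 0.26, adjusted p = 0.459, edgeR), well below its astrocyte value. The libraries held 439 and 520 gated astrocytes in WT and 181 and 214 in KI, and the part of these numbers was not tested.

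To see whether more nuclei carried a transcript, each nucleus was thinned to 1000 UMIs, which removes differences in depth. Gfap was then found in 10.6% and 10.9% of WT astrocytes and in 17.4% and 18.6% of KI astrocytes, a difference of 7.25 percentage points between means of 10.8 ± 0.212 and 18.0 ± 0.849 (SD, n = 2). Both KI libraries were above both WT libraries, and the exact two-sided permutation p was 0.333, the smallest that 2 against 2 allows. Without thinning the shares were 19.4% and 20.2% against 30.9% and 27.6%. Neurons, which should lack Gfap, showed 0.237%, 0.192%, 0.656% and 0.432% after thinning, with median depths of 4920 to 6201 UMIs before it against 1879 to 2428 in astrocytes. Thinning left out 3 to 13 astrocytes per library that held fewer than 1000 UMIs, and 314, 128, 222 and 107 oligodendrocytes.

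The same measure gave C4b in 3.46%, 1.49%, 15.9% and 9.77% of oligodendrocytes, beside 0.227%, 0.0566%, 0.84% and 0.52% of neurons. Exact 95% binomial intervals in oligodendrocytes were 2.61 to 4.49% and 0.835 to 2.44% in WT and 14.2 to 17.7% and 7.61 to 12.3% in KI, so the KI and WT intervals were apart. Unthinned, the oligodendrocyte shares were 5.76%, 2.46%, 22.8% and 16.1%. For C4b in astrocytes, the thinned shares, 5.87%, 4.67%, 6.74% and 5.88%, lay within each other's intervals, whereas the unthinned shares were 9.11% and 9.04% in WT and 17.1% and 14.0% in KI, at median depths of 1995, 2169, 2428 and 1879 UMIs. In OPC the thinned shares rested on 1, 1, 5 and 5 nuclei. Cryab was in 24.1%, 16.5%, 4.55% and 8.24% of oligodendrocytes (35.1%, 25.9%, 7.72% and 14.2% unthinned) and in 2.36%, 1.09%, 0.236% and 0.797% of neurons. Vim was in 3.76%, 0.584%, 6.18% and 9.31% of astrocytes, the WT2 value resting on 3 nuclei and the WT1 interval (2.16 to 6.03%) overlapping those of both KI libraries, and in 0.0905 to 0.31% of neurons. Serpina3n was in 0.469%, 0.973%, 5.06% and 1.96% of astrocytes, on 2, 5, 9 and 4 nuclei, and the interval of KI2 (0.537 to 4.94%) overlapped those of both WT libraries. The intervals cover counting error only, and shares over nuclei of 1 mouse are not replicates.

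**Figure D4:**
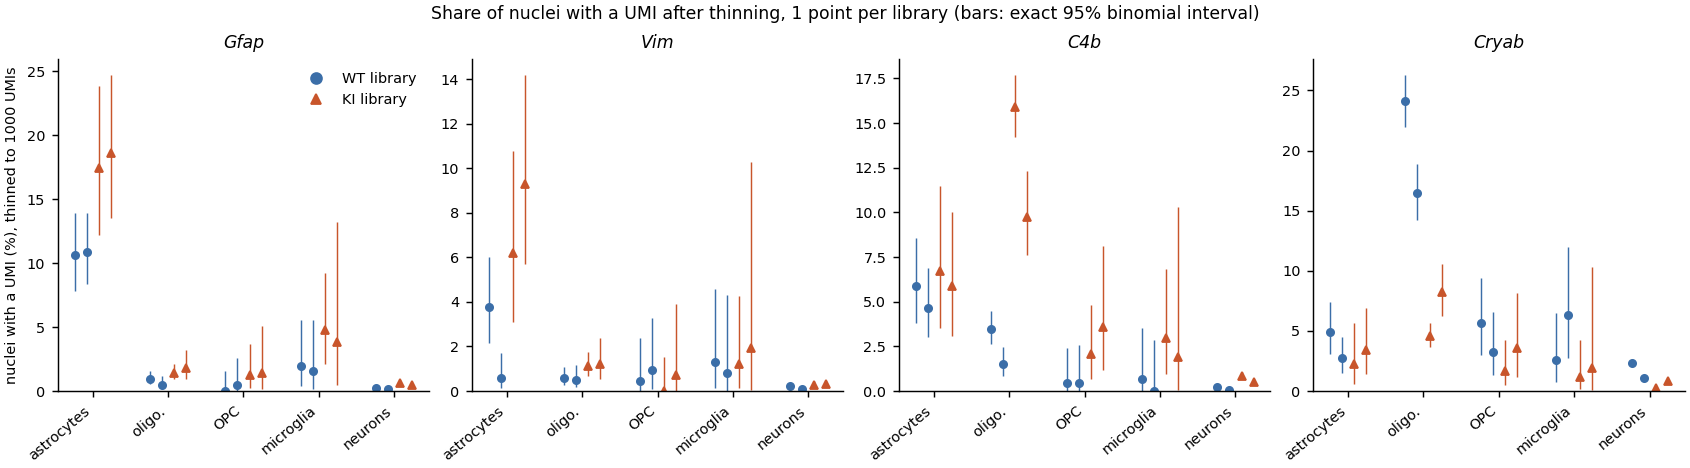
Share of nuclei with at least 1 UMI after thinning each nucleus to 1000 UMIs (y axis, percent) for Gfap, Vim, C4b and Cryab in the glial classes and neurons (x axis), 1 point per library with its exact 95% binomial interval, WT and KI in different colours. Gfap in astrocytes is at 10.6 and 10.9% in WT and 17.4 and 18.6% in KI, C4b in oligodendrocytes is higher and Cryab lower in both KI libraries, and the neuron points are the lowest or near 0.

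Within astrocytes, Vim was in 15.3%, 7.62%, 28.6% and 23.7% of the astrocytes with a Gfap UMI and in 3.67%, 1.93%, 9.60% and 10.3% of those without. In all 4 libraries the share was higher with Gfap, and so was depth, with medians of 2129 to 2733 UMIs against 1815 to 2266, whose part was not tested. Both KI libraries were above both WT libraries among nuclei with and without a Gfap UMI.

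Genes that act with the 10 were read from lists. Of 17 ligands, receptors, kinases and inhibitors of the JAK and STAT3 pathway, 8 passed the filter in astrocytes and 10 in oligodendrocytes, and none was called in any class or over all nuclei. The median log2 fold change of the 8 was -0.0252 in astrocytes and that of the 10 was 0.215 in oligodendrocytes, beside 0.00462 and 0.00782 over all genes. At an unadjusted p under 0.05 in edgeR, 1 of the 8 and 1 of the 10 passed, where 1219 of 9328 genes did so in astrocytes and 2036 of 12932 in oligodendrocytes. None of the 6 further pan-reactive astrocyte genes and none of the 12 genes of the ischaemia (A2) list had enough counts to be tested in astrocytes. Complement genes other than C4b numbered 18, of which 5 were tested in astrocytes and 7 in oligodendrocytes; none was called, 3 and 4 had an unadjusted p under 0.05 (1219 of 9328 and 2036 of 12932 over all genes), and the medians were 0.608 and 0.542, beside 0.00462 and 0.00782 over all genes. From 12 other genes of the small heat shock system 4 were tested in astrocytes and 4 in oligodendrocytes, from 10 other intermediate filament genes 6 and 7, and from 10 ligands and partners of CD44 3 and 4, with no call in either class, where 0.236% and 1.05% of all genes were called.

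Only Fkbp5 and Cdkn1a among the listed genes were called. Fkbp5, a co-chaperone of steroid receptors on the neuroinflammatory (A1) astrocyte list, was 184, 166, 380 and 494 CPM in oligodendrocytes (log2 fold change 1.37, SE 0.17, adjusted p = 0.00924, edgeR) and 83.9, 77.7, 182 and 275 CPM in OPC (1.55, SE 0.23, adjusted p = 0.000728). It was not called in astrocytes, and it was the 1 call among the 4 of 13 listed genes tested in oligodendrocytes (1.05% of all genes were called). All 4 had an unadjusted p under 0.05 there, with a median log2 fold change of 1.48, as did 2 of 3 in astrocytes, with a median of 1.55, beside the shares and medians over all genes given above. Cdkn1a, a cell cycle inhibitor on the list of disease-associated oligodendrocyte genes, was 19.9, 11.2, 99.6 and 74.3 CPM in oligodendrocytes (2.52, SE 0.28, adjusted p = 0.00572), the 1 call among 12 tested (1.05% of all genes), of which 6 had an unadjusted p under 0.05, with a median of 0.527. Microglial markers in oligodendrocytes were 3.37 to 3.78 per 10000 UMIs in WT and 4.46 to 5.54 in KI, whose part in these oligodendrocyte results was not tested.

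Over the 20 sums of class and library, the gene of 11190 most like each of the 10 was found by Pearson's r of log2(CPM + 1). C4b was closest to Hif3a (r = 0.914), Cryab to Qdpr (0.935), Gfap to Ssr3 (0.895), Vim to mt-Cytb (0.951) and then Id1 (0.939), and Osmr also to Id1 (0.956). Hspb1 was closest to Tead4 and Cyyr1 (0.943 for both), Stat3 to Clic1 (0.862), Serpina3n to Hmgb2 (0.84) and Cd44 to Abca1 (0.862), and Lcn2, with its few UMIs, reached only 0.699 with Prkar1b. The 20 sums share libraries, and those of vascular cells are shallow (34936 to 89161 UMIs), so these values describe the sums.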

How the data were processed

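RNA of single hippocampal nuclei was sequenced in 4 libraries, each from a different mouse, 2 WT and 2 KI. The deposited values are whole-number counts of UMIs per gene and nucleus, which the authors made with Cell Ranger 7.0.1 (per the file headers) on mm10 (per the submitters' processing notes). The annotation and the use of introns are not given in the sources used here, so intronic reads may or may not be counted. The study's published annotation of nuclei was not used here.

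Nuclei with fewer than 500 genes, more than 5% mitochondrial UMIs or a doublet score above 0.25 (Scrublet in scanpy 1.11.5) were left out, which removed 3263 nuclei as doublets. A class was assigned from 10 marker lists, each with a cut of 20 to 60 UMIs per 10000, at a lead of 3 times over the next class. The lead was first 1.5 and was raised to 3 after results with the looser value had been seen. With 1.5, the added nuclei held a large share of KI2's oligodendrocyte UMIs, and its neuronal markers were higher. Whether these were mixed nuclei was not tested, and the looser value is kept as an alternative. Raw UMIs were summed per library and class and tested with edgeR 4.0.16 in R 4.3.3 (quasi-likelihood test, TMM scaling, filterByExpr), genotype alone between KI and WT, and library, class and class by genotype between classes. The study tested single nuclei, which are not replicates of a genotype. DESeq2 1.42.0, other scalings and filters, a minimum of 1000 genes, a gate at 2 times the cut, classes from 41 Leiden clusters, a replicate block and the loss of each library were the alternatives. The edgeR tests were run on simulated data first. Shares were taken after thinning to 1000 UMIs and compared by an exact two-sided permutation test. Intervals are exact at 95% and cover counting error only.

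The 10 genes and the 9 gene lists were chosen with earlier results of these data known. The text names all 10, and from the lists up to 4 genes per list and class with an adjusted p below 0.05, by largest fold change. Gene positions are from GENCODE M21 (GRCm38) and promoters from RefSeq (GRCm38.p6). Nothing beyond the labels and methods says that the 4 mice were processed apart, and with 2 per genotype the p-values measure the spread between these mice only. The depth of the vascular class, 34936 to 89161 UMIs per library, limits what could be tested there.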

Additional observations from a re-analysis of the deposited data

Results flagged for a closer look

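The genotype effect on C4b differed between the 5 classes, with an adjusted p of 0.00324 for the class-by-genotype term (edgeR's quasi-likelihood F test, Benjamini-Hochberg over all genes). The log2 fold change, KI minus WT, was 0.87 in astrocytes, 2.29 in oligodendrocytes and 2.98 in OPC, and both KI libraries were above both WT libraries in each of the 3. The lowest adjusted p of any alternative was 0.00106 and the highest 0.879. It was above 0.05 without WT1 (0.191), without WT2 (0.879) and in nuclei with at least 1000 genes (0.164).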

How the results depend on the processing

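Of the values for single genes, 588 kept their direction and side of the threshold, 24 passed it newly, 27 lost it and 14 changed sign. The changes of sign came mostly from leaving out 1 library, which moved the log2 fold change of Osmr between -0.87 and 0.67 and of Cryab between -0.80 and 0.25 in astrocytes, of Stat3 between -0.10 and 0.25 and of Cryab between -1.66 and 0.034 in OPC, of Stat3 between -0.69 and 0.44 in microglia, of Hspb1 between -0.72 and 0.039 in vascular cells, and of Osmr between -0.011 and 0.89 and of Hspb1 between -0.37 and 0.14 over all nuclei. In named clusters Osmr was -0.12 in astrocytes and Stat3 -0.025 in OPC, and with library totals Stat3 was -0.062 in OPC. DESeq2 gave no adjusted p for Vim and Serpina3n in astrocytes and C4b in OPC.

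Counts of genes called between KI and WT moved more, and the cause was not tested. From 22 in astrocytes the count went to 272 with no low-count filter, 44 in nuclei with at least 1000 genes, 12 in named clusters and 97 with the looser gate. From 136 in oligodendrocytes it went to 872 with no filter, 85 at 1000 genes and 6 with the looser gate. From 75 in OPC it went to 154 with library totals, 16 with DESeq2, 139 with no filter and 1 in named clusters. From 19 in microglia it went to 2 with DESeq2, 52 with no filter, 3 at 1000 genes, 84 in named clusters and 58 with the stricter gate. From 193 over all nuclei it went to 1829 with DESeq2 and 710 with no filter. The 254 genes whose genotype effect differed between classes became 161 at 1000 genes and 71 with the looser gate. The looser gate was the first setting tried, and the lead of 3 used for all main values was chosen after seeing the data.

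Leaving out 1 library at a time gave 25 to 647 genes in astrocytes, 124 to 3072 in oligodendrocytes, 25 to 495 in OPC, 3 to 247 in microglia, 4 to 11 in vascular cells, 127 to 7196 over all nuclei, 1545 to 2199 between vascular cells and the other classes (2740 with all libraries) and 32 to 421 for the difference between classes. The lone library of a genotype was then assumed to vary like the pair. With library totals 62.5% of the astrocyte calls were up, against 72.7%, and 41.6% of the OPC calls, against 72.0%, with the median of all OPC genes shifted to -0.108.

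The main tests took no pairing from the replicate numbers. Same-numbered libraries deviated together with correlations of -0.0696 to 0.0265, which with 2 libraries per genotype cannot show whether the mice were paired. With the replicate block 66 genes were called in astrocytes, 260 in oligodendrocytes, 129 in OPC, 2 in vascular cells and 1955 over all nuclei, and Gfap in astrocytes passed (adjusted p = 0.0233). UMI counts limit Lcn2 in every class, and Osmr, Cd44 and Hspb1 outside the classes where they were tested.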
